A study of Mus musculus with 44 samples.

Results

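The ATAC-seq data were asked which chromatin opens in the inner cell mass (ICM) without a need for Oct4, the product of *Pou5f1*, or for Sox2. Of 152393 peaks, 6932 were opened in the early ICM, meaning that the mean rlog of *Pou5f1* Ctrl early ICM exceeded the means of both Ctrl morula and Ctrl late morula by at least 1.5. The rlog value is a log2 scale of transposase insertions that the authors adjusted for depth, so a difference of 1 is a 2-fold change. Of the opened peaks, 561 were selected on 4 further differences, KO minus Ctrl in early and in late ICM of the *Pou5f1* and of the *Sox2* line, each of which had to lie above -0.4. These 561 regions are called retained peaks here. The 2628 opened peaks in which all 4 differences were at or below -0.4 are called KO-lowered peaks and serve as the comparison.

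The series used here holds 44 libraries of pooled mouse embryos, 20 to 40 in each pool, in 12 conditions. The *Pou5f1* line gave KO and Ctrl embryos as morula (E2.75) and late morula (E3.25), with 3 libraries per condition, and *Pou5f1*-KO, *Sox2*-KO and the Ctrl embryos of both lines as early ICM (E3.75) and late ICM (E4.5), with 4 libraries per condition. KO embryos lacked the maternal copy, deleted in the oocyte by Zp3-Cre from a floxed allele, and carried a paternal knockout allele marked with mKO2 (*Pou5f1*) or EGFP (*Sox2*). Ctrl embryos lacked the maternal copy as well and carried a wildtype paternal copy, so no group was wholly wildtype. Every ICM came from an embryo grown in PD0325901, a MEK inhibitor, at 1 μM and was freed by immunosurgery, whereas morulae were collected without either step, so that opening in the ICM cannot be told apart from these treatments. Insertion counts are not part of these values and the depth of each library is unknown.

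Oct4 and Sox2 bind DNA together at a composite OCT-SOX motif and keep many enhancers of pluripotency genes accessible. The blastocyst also uses other DNA-binding factors. TEAD proteins, with the Hippo pathway coactivator YAP, act in trophectoderm and in early epiblast. GATA factors act in primitive endoderm and trophectoderm, TFAP2 factors in trophectoderm, and the nuclear receptor ESRRB in naive pluripotent cells. ERK signalling, which the MEK inhibitor blocks, drives ICM cells to primitive endoderm and switches on its own feedback genes.

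Few of the opened peaks passed the limit in all 4 comparisons. Of the 6932, 8.09% were at or below -0.4 in none of them, 12.8% in 1, 21.4% in 2, 19.8% in 3 and 37.9% in 4. Taken singly, 76.4% of opened peaks were at or below the limit in *Pou5f1*-KO early ICM and 75.4% in *Pou5f1*-KO late ICM, against 54.7% in *Sox2*-KO early ICM and 60.1% in *Sox2*-KO late ICM. Over all peaks these shares were 26.9%, 30.7%, 19.2% and 24.1%. The *Pou5f1* early comparison uses the same Ctrl libraries that chose the opened peaks for high values, which lowers its differences relative to the other comparisons. The limits cut through a continuous distribution. Near the opening limit, 143 retained peaks had a smaller rise below 1.6, the nearest at 1.5002, while 158 peaks within 0.1 under the limit failed only by that, the nearest at 1.4997. Near the KO limit, 166 retained peaks had a lowest difference within 0.1 of -0.4, the nearest at -0.3997, and 215 opened peaks fell just outside, the nearest at -0.4.

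**Figure D1:**
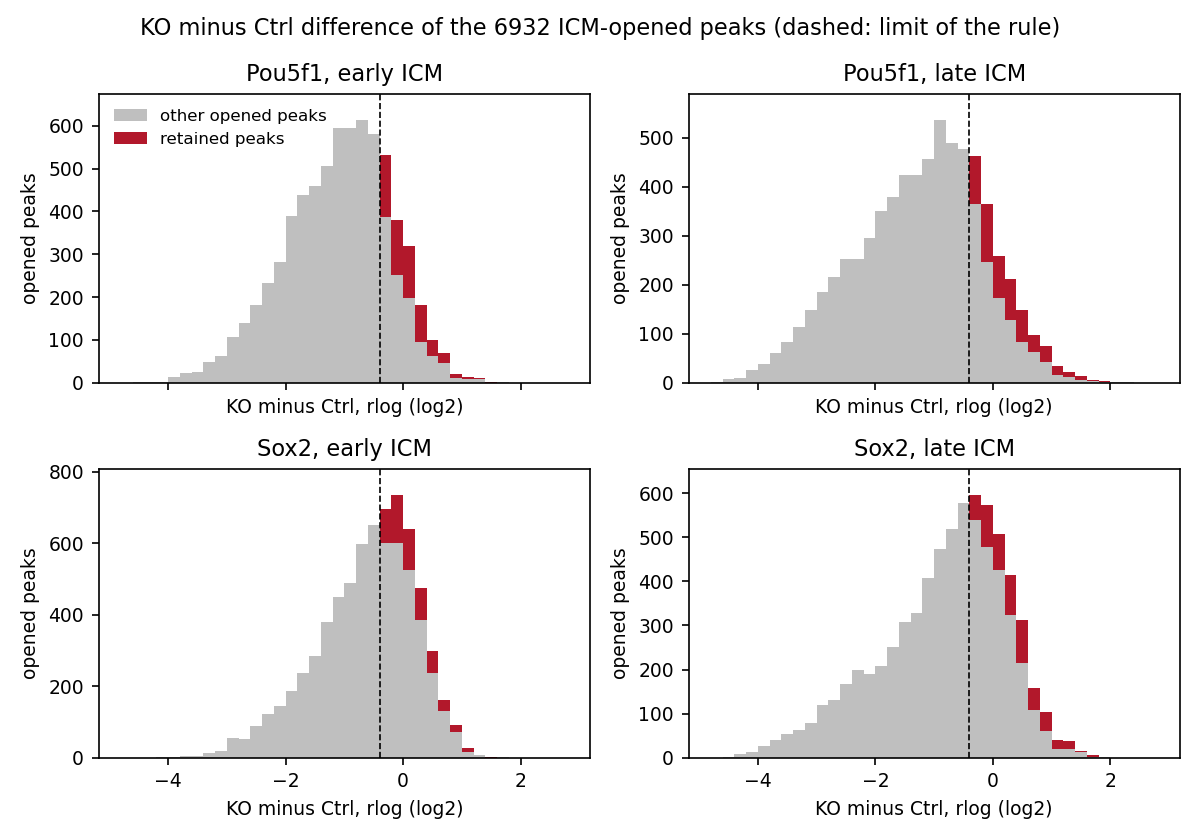
Histograms of the KO minus Ctrl difference in rlog (x axis, log2) of the 6932 opened peaks (y axis, number of peaks per bin of 0.2), 1 panel per comparison, with the 561 retained peaks in red on top of the other opened peaks in grey and the limit of -0.4 dashed. The retained peaks sit at the right-hand end of 1 broad distribution in each panel and form no separate group.

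Several motif words had other shares in the retained peaks than in the KO-lowered peaks. Words for 32 motifs were searched on both strands of the 200 bp windows. The word for ESRRB, CAAGGTCA, was in 98 retained peaks (17.5%, 95% Wilson interval 14.6 to 20.8), in 5.95% of all peaks and in 10.2% of the KO-lowered peaks. It was in 13.1% of all opened peaks, so much of its excess over all peaks was common to the opened peaks. The TEAD word ACATTCC was in 100 retained peaks (17.8%, 14.9 to 21.2), in 7.53% of all peaks, in 9.36% of all opened peaks and in 6.54% of the KO-lowered peaks. A direct repeat of 2 nuclear receptor half-sites with 1 base between them, called DR1, was in 20 retained peaks (3.57%) against 1.33% of all peaks, 2.12% of all opened peaks and 1.6% of KO-lowered peaks. It can overlap the ESRRB word, and 10 retained peaks held both. The TCF word CTTTGAT was in 5.53% of retained peaks (3.92 to 7.74) and in 2.78% of all peaks. Its 4.41% in KO-lowered peaks and 4.11% in all opened peaks lay within the interval of the retained peaks. In the central 100 bp, a shorter window in which a word is found less often by construction, the TCF word was in 2.67% of retained and 2.74% of KO-lowered peaks, DR1 in 1.25% and 0.799%, ESRRB in 10.9% of retained and 3.56% of all peaks and TEAD in 10.3% and 4.58%. These 4 words had the largest ratios of the share in retained peaks to the share in all peaks among words held by at least 2% of retained peaks, at 2.94, 2.37, 2.69 and 1.98 in the order given here. The Wilson intervals cover counting error over peaks only, and neighbouring peaks are not independent.

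The GATA word AGATAA, the shortest, was the most frequent of the words searched, in 158 retained peaks (28.2%, 24.6 to 32), against 17.5% of all peaks, 17.3% of all opened peaks and 15.1% of KO-lowered peaks. The TFAP2 word GCCNNNGGC was in 18.2% of retained, 11% of all, 14.2% of all opened and 9.63% of KO-lowered peaks. At least 1 of the ESRRB, TEAD, GATA and TFAP2 words was present in 367 retained peaks (65.4%), against 46.4% of all opened peaks and 36.7% both of all peaks and of KO-lowered peaks. Either the ESRRB or the TEAD word was in 189 retained peaks. Both were in 9 (1.6%), against 0.851% of all opened, 0.419% of KO-lowered and 0.318% of all peaks.

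The words of the factors under study were rare. The OCT-SOX word was found in 4 retained peaks (0.713%, 0.278 to 1.82), against 3.44% of all peaks, 11.5% of all opened peaks and 23.2% of the KO-lowered peaks. The OCT word ATGCAAAT, which is also the end of the OCT-SOX word, was found in 1 retained peak (0.178%) and in 7.27% of KO-lowered peaks. The SOX word CCATTGT, by contrast, was in 42 retained peaks (7.49%), above its 4% in all peaks and below its 11.1% in KO-lowered peaks. The CTCF word was in 1.07% of retained, 2.28% of KO-lowered, 1.86% of all opened and 7.48% of all peaks. The KLF word GGGNGTGG was in 10.7%, 10.2%, 12.6% and 20.6% in the same order, so that low shares of both words were common to the opened peaks. The AP-1 word TGANTCA was in 7.84% of retained and 7.75% of all peaks, a difference smaller than its interval. A match to a word is a description of the sequence and not a bound site. The retained peaks were chosen by their KO differences, so the scarcity of OCT-SOX words among them describes what the selection left.

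**Figure D2:**
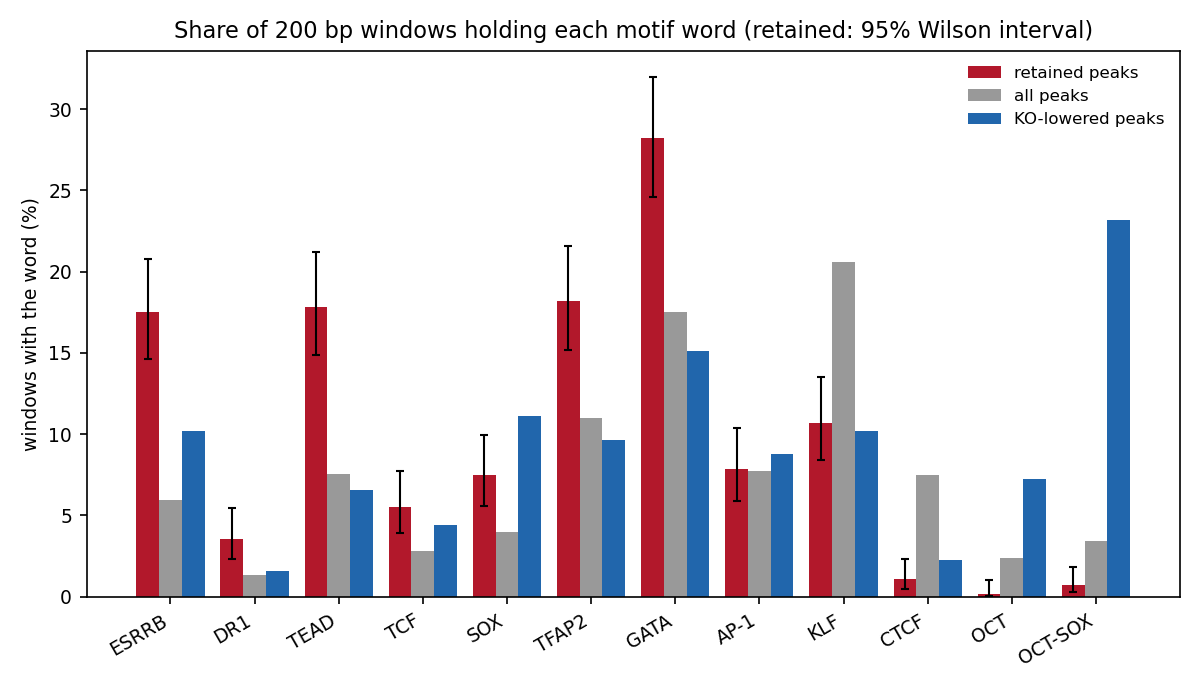
Share of 200 bp windows (y axis, percent) that hold each of 12 motif words (x axis) in retained peaks (red, with 95% Wilson intervals), all peaks (grey) and KO-lowered peaks (blue). The ESRRB, TEAD, TFAP2 and GATA bars of the retained peaks stand above both other sets, and their OCT-SOX bar is at 0.713% against 23.2% in KO-lowered peaks.

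To show these words in place, the windows of 5 retained peaks are printed, up to 2 per leading word with the largest rises among the named peaks, from the plus strand of GRCm38, the build of mm10, with the word in capitals. The intron of *Dusp6* and the region upstream of *Sos1* carry the TEAD word, the former as its reverse complement GGAATGT. The intron of *Zmynd8* carries the ESRRB word, and the region upstream of *Ank* carries a DR1 match whose first 8 capitals are the reverse complement of the ESRRB word. The intron of *Mmp15* carries the TCF word.
*Dusp6* intron, chr10:99265651-99265850: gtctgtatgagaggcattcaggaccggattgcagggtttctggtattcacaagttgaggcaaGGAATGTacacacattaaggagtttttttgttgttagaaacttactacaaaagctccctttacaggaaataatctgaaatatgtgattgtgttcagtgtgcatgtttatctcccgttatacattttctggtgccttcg
*Sos1* upstream, chr17:80500080-80500279: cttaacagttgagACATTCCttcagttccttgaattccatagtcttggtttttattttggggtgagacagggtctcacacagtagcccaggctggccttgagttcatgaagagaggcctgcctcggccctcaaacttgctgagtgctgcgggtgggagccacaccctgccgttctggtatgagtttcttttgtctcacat
*Zmynd8* intron, chr2:165830459-165830658: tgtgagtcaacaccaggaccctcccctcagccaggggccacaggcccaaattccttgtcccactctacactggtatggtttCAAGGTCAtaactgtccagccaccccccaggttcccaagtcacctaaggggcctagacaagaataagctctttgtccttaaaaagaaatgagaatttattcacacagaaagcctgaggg
*Ank* upstream, chr15:27442959-27443158: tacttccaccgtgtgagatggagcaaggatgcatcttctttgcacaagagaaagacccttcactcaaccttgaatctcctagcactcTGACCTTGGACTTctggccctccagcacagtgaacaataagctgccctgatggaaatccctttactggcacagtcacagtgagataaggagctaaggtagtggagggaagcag
*Mmp15* intron, chr8:95358828-95359027: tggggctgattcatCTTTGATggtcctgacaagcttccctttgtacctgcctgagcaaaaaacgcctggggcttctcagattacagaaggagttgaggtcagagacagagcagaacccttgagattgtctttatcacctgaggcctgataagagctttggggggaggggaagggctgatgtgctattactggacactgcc

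Retained peaks lay nearer to genes than KO-lowered peaks. Their median distance to the nearest protein-coding start site was 12498 bp, close to the 11675 bp of all peaks and below the 29268 bp of KO-lowered peaks. Introns held 52.4% of retained and 40.3% of KO-lowered peaks, and intergenic sequence held 39.9% and 55.5%. Within 1 kb of a transcription start site lay 17.1% of retained, 7.19% of KO-lowered and 19.5% of all peaks, and within 100 bp 4.1%, 1.14% and 7.77%. Windows with at least 50% of their bases masked as repeats made up 10.3% of retained peaks, 29.3% of KO-lowered peaks and 23.2% of all peaks. Median GC content was 47.5% in retained, 46% in KO-lowered and 50% in all peaks. Of the 561 retained peaks, 96 (17.1%) were in 43 runs of retained peaks no more than 25 kb apart, a share that was not computed for the other sets.

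In the libraries that chose them, retained peaks rose by a median of 1.88 over Ctrl morula (highest 3.68) and 1.94 over Ctrl late morula (highest 4.06). As a description of the selection, all 561 were called higher in Ctrl early ICM by limma, against 16.5% and 14.7% of all peaks in the same comparisons, and in 504 every Ctrl early ICM library lay above every Ctrl morula and late morula library, which held for 10.8% of all peaks. The median rlog over the retained peaks was 1.87 ± 0.0801 (SD over libraries, n = 3) in Ctrl morula and 1.87 ± 0.0755 (n = 3) in Ctrl late morula. It was 3.94 ± 0.164 (n = 4) in *Pou5f1* Ctrl early ICM and 3.79 ± 0.241 (n = 4) in late ICM. The KO medians were at the Ctrl level by construction, at 4.02 ± 0.396 in *Pou5f1*-KO early ICM and 3.99 ± 0.272 in *Pou5f1*-KO late ICM (n = 4 each). In the *Sox2* line the medians were lower in early ICM, at 3.44 ± 0.341 in Ctrl and 3.61 ± 0.5 in KO (n = 4 each). All opened peaks were lower there too, at 3.2 in *Sox2* Ctrl against 3.71 in *Pou5f1* Ctrl early ICM, whose libraries chose them for high values. The KO-lowered peaks, which stood at 3.71 in *Pou5f1* Ctrl early ICM, stood at 1.74 in *Pou5f1*-KO and 1.76 in *Sox2*-KO early ICM.

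**Figure D3:**
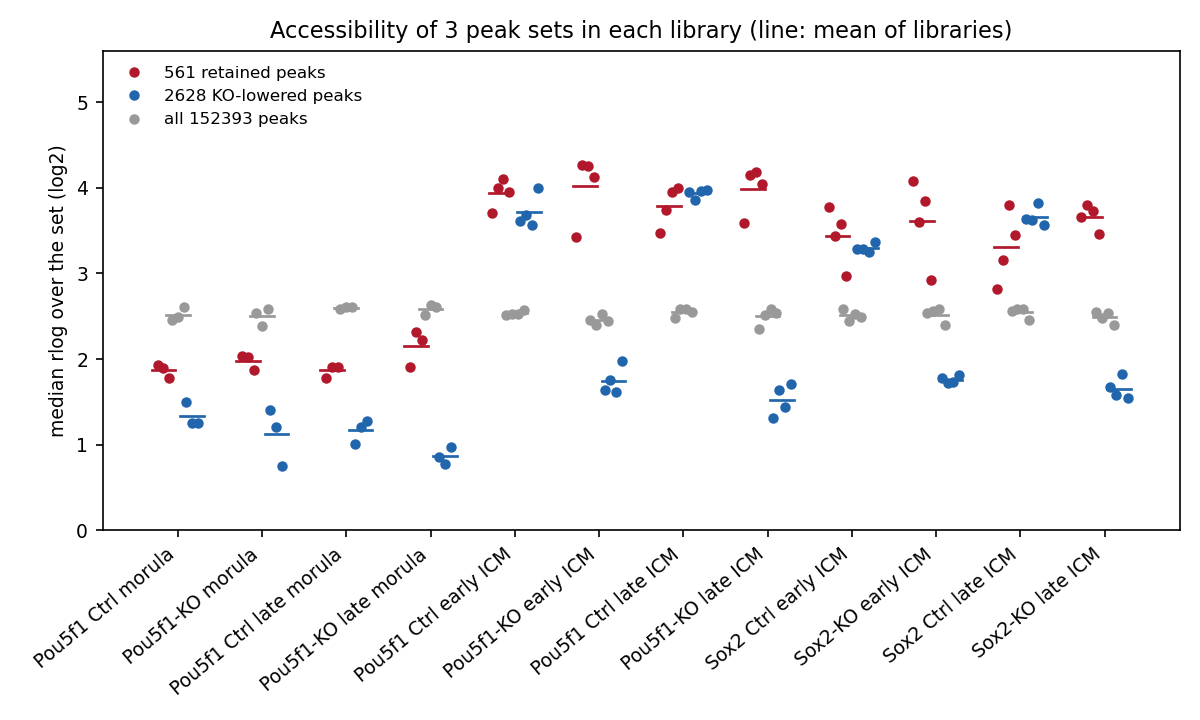
Median rlog (y axis, log2) over the 561 retained peaks (red), the 2628 KO-lowered peaks (blue) and all 152393 peaks (grey) in each of the 44 libraries (points) by condition (x axis), with lines at the mean of libraries. Retained peaks lie between 1.78 and 2.32 in the morula libraries and between 2.82 and 4.27 in all ICM libraries, KO included, whereas KO-lowered peaks stay at or below 1.98 in the KO ICM libraries.

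The rule did not use the *Pou5f1*-KO morulae, nor the mean level of the *Sox2*-line ICMs, of which it used only the difference of KO and Ctrl. Comparing these values tests the opening in a difference that did not choose the peaks. The *Sox2*-line libraries themselves entered the choice through that KO minus Ctrl difference, and the comparison also crosses mouse lines and genotypes. Between *Sox2*-line early ICM (KO and Ctrl averaged, 8 libraries) and *Pou5f1*-KO late morula (3 libraries), 403 of the 561 retained peaks (71.8%) rose and 2 fell, against 16.6% and 18.6% of all peaks (limma, Benjamini-Hochberg adjusted over all peaks). The median difference was 1.37 for retained peaks, 1.46 for KO-lowered peaks and -0.02 for all peaks, and 539 of the 561 were above 0. Against *Pou5f1*-KO morula 416 rose (74.2%), with 21.1% of all peaks, and the median difference was 1.46, 1.2 and 0.18 in the same order. All opened peaks had medians of 1.37 against late morula and 1.25 against morula, with 96.6% and 95.5% above 0. Such rises were thus common to the opened peaks and not particular to the retained ones. Both comparisons were passed by 360 retained peaks (64.2%) and by 11.9% of all peaks. They share the ICM libraries. Same-numbered KO and Ctrl early ICM libraries of a line deviated together, and replicate 4 had the lowest median over the retained peaks in both *Sox2*-line early ICM groups (2.97 in Ctrl and 2.92 in KO). With this correlation estimated in the fit, 399 and 413 retained peaks rose in place of 403 and 416. As a description, since the rule kept peaks whose *Sox2*-KO mean was less than 0.4 below its Ctrl and so favoured peaks with all libraries high, all 8 *Sox2*-line libraries lay above all 3 *Pou5f1*-KO late morula libraries in 222 retained peaks (39.6%), against 8.16% of all peaks, and above all 3 *Pou5f1*-KO morula libraries in 219, against 8.95%.

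**Figure D4:**
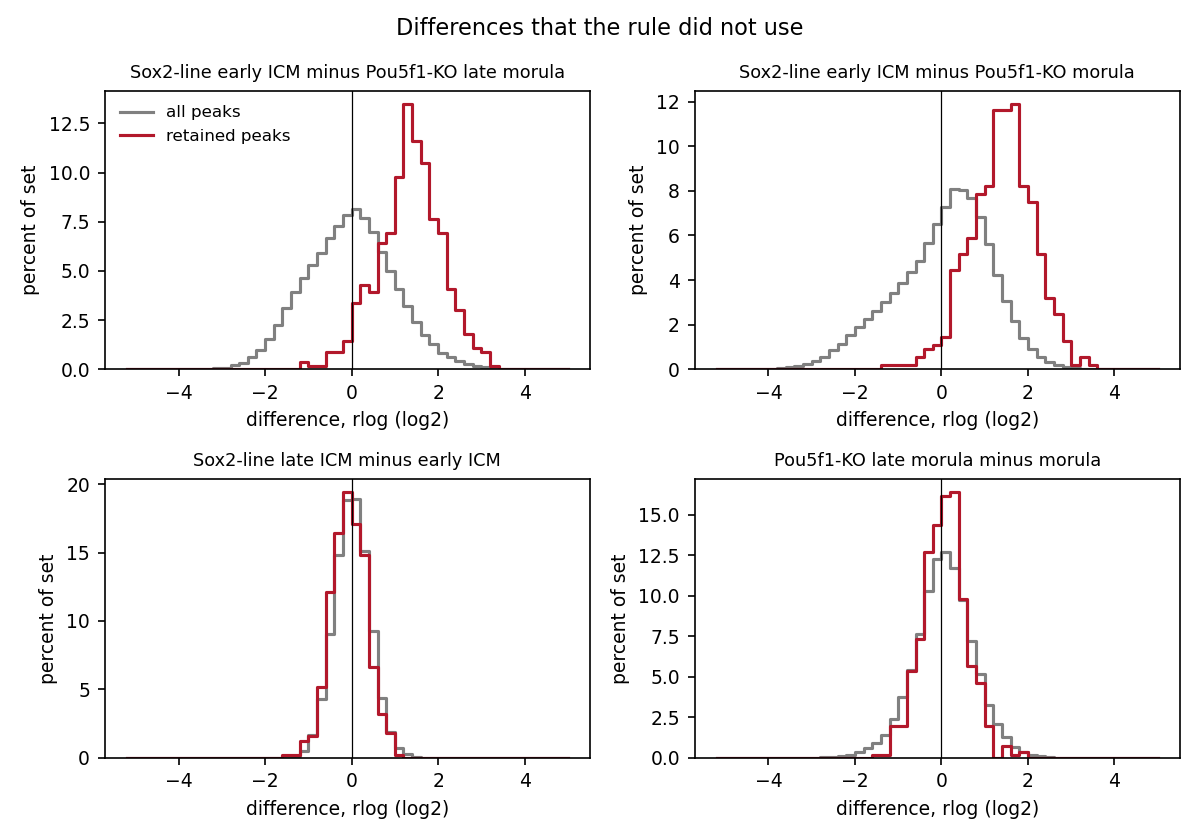
Distribution of 4 differences that did not choose the peaks (x axis, rlog difference, log2), as percent of the set per bin of 0.2 (y axis), for retained peaks (red) and all peaks (grey). The retained peaks are shifted to medians of 1.37 and 1.46 in the upper panels and are centred near 0 in the lower panels, at -0.07 and 0.06.

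Few peaks of any kind passed the test within the ICM or within the morula. From early to late ICM of the *Sox2* line, 2 retained peaks (0.357%) rose and 6 (1.07%) fell, against 1.52% and 0.596% of all peaks. The 2 that rose lay upstream of *Prss35*, a serine protease gene (1.04 ± 0.3 SE, adjusted p = 0.044), and in an intron of *Zmynd8*, which encodes a chromatin reader (0.96, adjusted p = 0.038). At both, low single early libraries stood beside the call. At *Prss35* 1 *Sox2*-KO early ICM library was at 1.49 with the others at 3.76 to 4.06, and leaving out 1 library brought the number of retained peaks that rose to between 0 and 6. With an estimated correlation between same-numbered KO and Ctrl libraries, 0 rose and 3 fell. The largest falls were at *Eml1*, a gene for a microtubule-associated protein (fell by 1.44, adjusted p = 0.0023), upstream of *Myl2*, a myosin light chain gene (fell by 1.34, adjusted p = 0.034), and upstream of *Anapc15-ps* (fell by 1.16, adjusted p = 0.01). At *Eml1* the early libraries lay between 2.95 and 4.46 and the late ones between 1.61 and 3.28, so that the groups overlapped slightly. From *Pou5f1*-KO morula to *Pou5f1*-KO late morula, 4 retained peaks (0.713%) rose, against 1.86% of all peaks, and limma called 0 lower, with 16 lower at an unadjusted p under 0.05 and 1.51% of all peaks called lower.

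The KO differences of the retained peaks, which the rule bounded from below, were spread above the limit. Their medians were 0.007 and 0.146 in *Pou5f1*-KO early and late ICM and 0.082 and 0.303 in *Sox2*-KO early and late ICM. All 4 differences were within 0.4 of 0 in 175 peaks (31.2%), and in 94 peaks (16.8%) at least 1 exceeded 1. As a description of values that the rule used, in late ICM 30 retained peaks (5.35%) were called higher in *Pou5f1*-KO than in Ctrl, against 8.19% of all peaks, and 27 (4.81%) in *Sox2*-KO, against 2.71%. In early ICM 4 were called higher in *Pou5f1*-KO and 1 in *Sox2*-KO, where 4196 and 363 of all 152393 peaks were. In at least 1 of the late ICM comparisons 53 retained peaks (9.45%) were called higher, at the share of all peaks (9.88%). The second peak of *Tmed10*, a cargo receptor of the early secretory pathway, was higher in all 4 comparisons, by 0.58, 1.39, 0.59 and 1.69. It stood at 2.6 to 4.69 in *Sox2* Ctrl late ICM and at 5.08 to 5.77 in *Sox2*-KO late ICM.

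How firmly single peaks belong to the set was read by choosing on some replicates and reading the others. The rule applied to replicates 1 and 2 chose 443 peaks. In the other replicates their median smaller rise was 1.42, against 1.55 for the other peaks opened in replicates 1 and 2, 44.9% of them were opened again, against 52.3%, and their median KO differences were 0.1, -0.09, 0.03 and -0.14, in the order *Pou5f1* early, *Pou5f1* late, *Sox2* early and *Sox2* late. No difference at or below -0.4 was seen there in 35% of them, against 4.53% of those other opened peaks and 34.2% of all peaks. The rule was met again by 60 of the 443 (13.5%), against 1.49% of the other opened peaks. Chosen on replicates 3 and 4 (3 alone in morulae), 706 peaks had a median smaller rise of 0.91 in the other replicates, against 1.35 for the other opened peaks, and 22.1% were opened again, against 42.4%. Their median KO differences were 0.1, 0.32, 0.11 and 0.67, and 51.6% showed no difference at or below -0.4, against 9.69% of the other opened peaks and 35.4% of all peaks. The rule was met again by 8.5% of the 706, against 1.73% of the other opened peaks. In libraries that did not choose them, the medians of the chosen peaks were thus not below -0.14 in any KO, while opening was repeated for 44.9% and 22.1% of them and most single peaks did not meet the rule again. The word shares moved with the choice. ESRRB was at 16.5% and 13% in the 2 choices, against 12.7% and 11.9% of the other opened peaks, and TEAD at 14% and 18.3%, against 7.51% and 9.39%. GATA was at 27.1% and 30.7%, against 16.2% and 16.4%, and OCT-SOX at 1.13% and 1.56%, against 12.2% and 10.7%.

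Of the 12 retained peaks with the largest rises, 1 per nearest protein-coding gene, all 12 were also higher in *Sox2*-line early ICM than in *Pou5f1*-KO late morula, by 1.04 to 3.07, as were 71.8% of all retained peaks and 16.6% of all peaks. The peak in an intron of *Dusp6*, 109 bp downstream of a start site, lies in the gene of the phosphatase that inactivates ERK. Its rlog was 0.93, 1.52 and 2.22 in Ctrl morula, 0.72, 1.21 and 1.37 in Ctrl late morula and 3.96, 4.46, 4.59 and 4.89 in *Pou5f1* Ctrl early ICM. It was 3.67, 4.82, 5.23 and 5.91 in *Pou5f1*-KO early ICM and 2.61, 3.24, 3.65 and 4.44 in *Sox2*-KO early ICM. The rule kept only peaks whose KO means were less than 0.4 below their Ctrl, so these KO values are a description. No morula library reached any ICM library, which was not counted over all peaks, and in *Pou5f1*-KO late morula the values were 0.56, 0.92 and 1.03. The difference of *Sox2*-line early ICM from *Pou5f1*-KO late morula was 2.72 ± 0.41 (SE, limma adjusted p = 1e-07). The other *Dusp6* peak, in a coding exon at chr10:99264865-99265064, was higher than in *Pou5f1*-KO morula by 1.51 (adjusted p = 0.00044), and its difference from *Pou5f1*-KO late morula was 0.68 ± 0.36 (adjusted p = 0.14).

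The peak 19726 bp upstream of *Sos1*, the gene of an exchange factor that activates Ras, stood at 1.94, 2.78 and 2.81 in Ctrl morula, at 1.27, 1.46 and 1.47 in Ctrl late morula and at 5.3, 5.35, 5.42 and 5.56 in *Pou5f1* Ctrl early ICM. The 4 *Pou5f1*-KO early ICM libraries, whose mean the rule bounded, were at 4.71, 5.31, 5.9 and 6.36, around the Ctrl values and wider. Its difference between *Sox2*-line early ICM and *Pou5f1*-KO late morula was 2.53 ± 0.36 (adjusted p = 1.4e-08). A peak with *Rreb1*, a Ras-responsive zinc finger gene, as its nearest gene at 67616 bp differed by 2.69 ± 0.33 (adjusted p = 2.5e-10) in the same comparison.

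The peak at chr13:115090662-115090861, 575 bp upstream of *Pelo*, a ribosome rescue factor gene, and inside *Itga1*, lies in an exon of a non-coding transcript. It stood at 1.95, 2.55 and 3.43 in Ctrl morula and at 5.47, 5.88, 5.98 and 6.02 in *Pou5f1* Ctrl early ICM. As a description of values that the rule bounded, all 16 KO ICM libraries were between 4.99 and 6.41, above every morula library. The difference between *Sox2*-line early ICM and *Pou5f1*-KO late morula was 3.07 ± 0.3 (adjusted p = 8.3e-15). A second retained peak lay 206 bp upstream of a start site of *Itga1*, the gene of a collagen-binding integrin subunit, and differed by 1.6 ± 0.33 (adjusted p = 8.6e-05).

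The peak with the largest rise of all was 21278 bp upstream of *Me1*, which encodes the cytosolic malic enzyme. It stood at 1.51, 1.55 and 1.75 in Ctrl morula and at 4.66, 5.21, 5.48 and 5.79 in *Pou5f1* Ctrl early ICM, and held none of the 32 words. It belongs to the longest run of retained peaks, 4 peaks in 41394 bp at chr9:86696022-86737415 between *Me1* and *Prss35*. All 4 were higher in *Sox2*-line early ICM than in *Pou5f1*-KO late morula, by 1.04 to 2.36. Runs of 3 or more retained peaks, looked up after their values were seen, held 28 peaks, of which 24 were higher in that comparison and 26 in that with *Pou5f1*-KO morula, where the shares were 71.8% and 74.2% of retained peaks and 16.6% and 21.1% of all peaks. They included 3 intronic peaks of *Col4a1* within 6522 bp, which differed by 1.62, 2.1 and 1.96, and 3 peaks upstream of *Klf6*, a Krüppel-like factor gene, which differed by 1.86, 1.94 and 2.22.

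**Figure D5:**
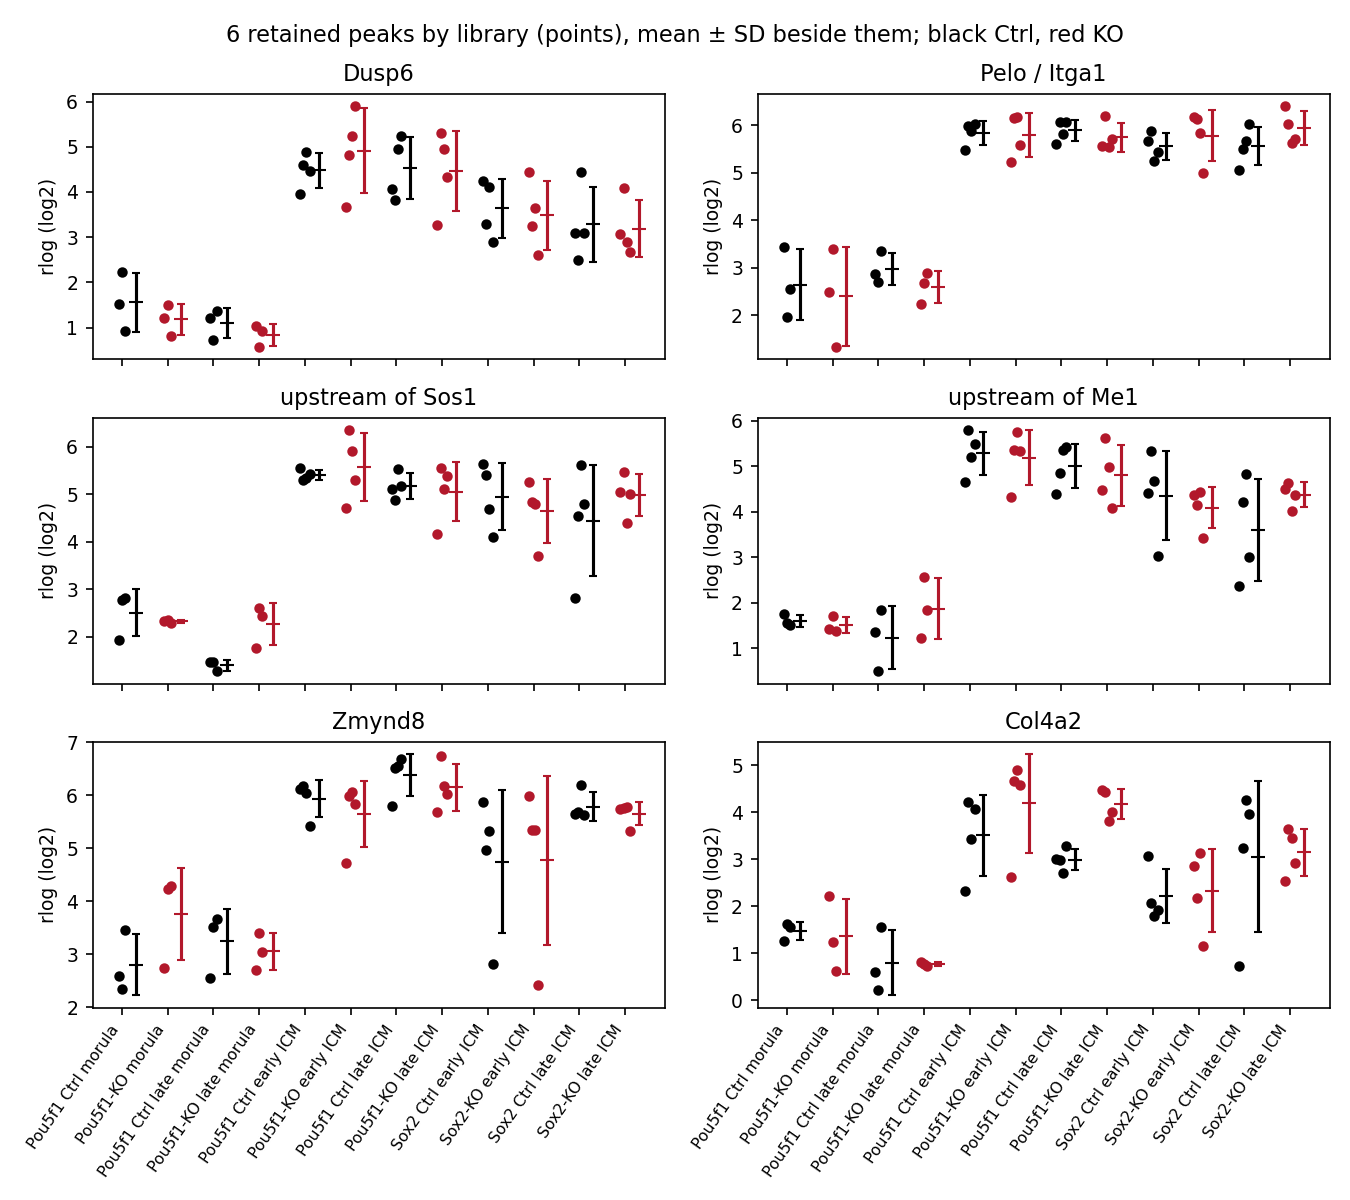
rlog (y axis, log2) of 6 retained peaks in each library (points; black Ctrl, red KO), with the mean ± SD of each condition beside its points (x axis, condition; n = 3 for morulae, n = 4 for ICMs). The *Dusp6*, *Pelo*/*Itga1* and *Sos1* peaks lie at ICM levels in KO libraries of both lines, as the rule required of the KO means. The *Col4a2* peak is higher in *Pou5f1*-KO late ICM (3.82 to 4.47) than in its Ctrl (2.71 to 3.28).

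The other peaks with large rises had varied nearest genes. Those of *Zmynd8*, *Nek3* and *Cstf3* were in introns. Those of *Ank*, *Prss35*, *Serp2* and *Add3* were intergenic, 23619, 6334, 58988 and 48051 bp upstream of the nearest protein-coding start site. *Ank*, a pyrophosphate transporter gene, *Zmynd8*, *Prss35*, *Serp2*, *Add3* (an adducin of the membrane skeleton), *Nek3* (a kinase) and *Cstf3* (a subunit of the mRNA 3' end cleavage machinery) had retained peaks that differed between *Sox2*-line early ICM and *Pou5f1*-KO late morula by 1.77, 1.71, 1.04, 2.59, 1.97, 1.22 and 2.69. At *Zmynd8* 1 library of each *Sox2*-line early ICM group was far below the rest, at 2.81 in Ctrl and 2.43 in KO, where the others were at 4.97 to 5.98.

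Start sites were a small part of the set. Of the 8 retained peaks within 100 bp of a start site with the largest rises, 4 were higher in *Sox2*-line early ICM than in *Pou5f1*-KO late morula and all 8 than in *Pou5f1*-KO morula, beside 71.8% and 74.2% of retained peaks and 16.6% and 21.1% of all peaks. The start site of *Hoxc12*, a homeobox gene of the posterior body, differed by 2.17 ± 0.39 (adjusted p = 5.5e-06) from *Pou5f1*-KO late morula, and a second retained peak lay 1643 bp upstream of it. The start of *Gpr85*, an orphan receptor gene, differed by 1.25 (adjusted p = 0.008), that of the non-coding *Gm15441* by 1.29 (adjusted p = 0.00046) and that of the non-coding *AC151294.2* by 1.73 (adjusted p = 0.0011). At *Stambpl1*, a deubiquitinase gene, *Rnf157*, a ubiquitin ligase gene, *Msx1*, a homeobox gene, and the non-coding *AC162612.1* the values were 0.9, 0.33, 0.96 and 0.01, none of which passed.

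Genes with more than 1 retained peak within 10 kb of a start site were few, 18 of 269, and none had over 2. The 6 with the largest summed rises were *Dusp6*, *Spg20*, *Tmed10*, *Fez2*, *Mmp15* and *Hoxc12*, and 10 of their 12 peaks were higher in *Sox2*-line early ICM than in *Pou5f1*-KO late morula (71.8% of retained and 16.6% of all peaks). At *Mmp15*, a membrane-bound matrix metalloproteinase gene, the peaks differed by 2.27 and 1.44, and at *Spg20*, the gene of spartin, by 2.01 and 1.33. At *Fez2* the values were 1.02 (adjusted p = 0.023) and 0.81 (adjusted p = 0.1).

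Gene lists gave small counts, set here beside the peaks of the same lists. No retained peak lay within 10 kb of a start site of the 28 pluripotency genes, which had 236 peaks, 38 of them opened and 16 KO-lowered. Within 50 kb the same genes had 4 (0.713% of retained peaks, against 0.412% of all peaks), 2 near *Nanog* and 1 each near *Klf5* and *Esrrb*, so that the 0 holds for the nearer distance only. Within 10 kb the WNT, TGF-beta and BMP, LIF and STAT3, Hippo, DNA and histone modifier and germline lists also had 0. They had 71 to 308 peaks each, or 0.0466% to 0.202% of all peaks, so these counts are also near the overall share. Within 50 kb the Hippo list had 3, the TGF-beta and BMP list 2 and the WNT list 0. The primitive endoderm list had 4 retained peaks of 145 peaks (16 opened) and the FGF and ERK list 4 of 244 (23 opened). Each was 0.713% of retained peaks, against 0.0951% and 0.16% of all peaks. The cell adhesion and matrix list had 3 of 301, stress response 3 of 199 and metabolism and transport 3 of 259. Each was 0.535% of retained peaks, against 0.198%, 0.131% and 0.17% of all peaks. The trophectoderm and the formative and primed state lists had 1 each (0.178%, against 0.111% and 0.0689%). Peaks can count in more than 1 list. The counts are given as a description.

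Of the 4 retained peaks near genes of the FGF and ERK list, 2 at *Dusp6* and 1 each at *Etv5* and *Fgfr2*, 3 were higher in *Sox2*-line early ICM than in *Pou5f1*-KO late morula (16.6% of all and 71.8% of retained peaks) and 4 than in *Pou5f1*-KO morula (21.1% and 74.2%). The intronic peak of *Etv5*, an ETS factor gene responsive to FGF, stood at 3.7 to 4.69 in Ctrl late morula and at 5.33 to 6.09 in *Pou5f1* Ctrl early ICM, and differed by 1.61 ± 0.28 (adjusted p = 2.8e-06) from *Pou5f1*-KO late morula in the *Sox2* line. The peak in *Fgfr2*, an FGF receptor gene, differed by 1.77 ± 0.41 (adjusted p = 0.00039). Its KO differences in the *Pou5f1* line were 0.79 in early and 0.74 in late ICM, and in the *Sox2* line -0.01 and 0.46.

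The primitive endoderm list was represented by the basement membrane genes *Lamb1*, a laminin subunit, and *Col4a1* and *Col4a2*, type IV collagen chains with a shared promoter region, by *Cubn*, an endocytic receptor gene, and by *Fgfr2*. The *Lamb1* peak differed by 1.34 ± 0.37 (adjusted p = 0.0029) between *Sox2*-line early ICM and *Pou5f1*-KO late morula, the *Col4a2* intron by 1.51 ± 0.45 (adjusted p = 0.0062) and the *Cubn* upstream peak by 1.4 ± 0.39 (adjusted p = 0.0027). At *Col4a2* and *Cubn* the *Pou5f1*-KO differences were 0.68 and 0.77 in early ICM and 1.19 and 1.22 in late ICM, whereas the *Sox2*-KO differences were between -0.01 and 0.11. Against *Pou5f1*-KO morula neither passed the test, with differences of 0.92 (adjusted p = 0.096) and 0.9 (adjusted p = 0.052).

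Among the remaining lists, the peak in *Sesn2*, a stress-induced sestrin gene, differed by 2.49 ± 0.38 (adjusted p = 9.6e-08), that in *Zic5*, a zinc finger gene, by 1.62 (adjusted p = 0.0017) and that near *Cldn4*, a tight junction gene, by 1.29 (adjusted p = 0.026). The 2 peaks within 10 kb downstream of *Gadd45g*, a growth arrest gene, had differences of 0.77 and 0.86 that did not pass the test against *Pou5f1*-KO late morula, and passed it against *Pou5f1*-KO morula (1.47, adjusted p = 0.00054, and 1.19, adjusted p = 0.032). Another retained peak, 10457 bp downstream and so outside the distance of the lists, passed against late morula (1.05, adjusted p = 0.044). Against late morula the test was also not passed for *Slc2a3*, a glucose transporter gene (1.01, adjusted p = 0.072), *Pdk2*, a kinase of pyruvate dehydrogenase (0.63, adjusted p = 0.21), and *Hk2*, a hexokinase gene (0.38, adjusted p = 0.58), of which *Pdk2* passed against *Pou5f1*-KO morula (1.32, adjusted p = 0.0039).

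Peaks within 1 kb of the start sites of 8 marker genes of each lineage were read as a description of the pools, and none of them was a retained peak. Epiblast markers (*Nanog*, *Sox2* and others) had a mean rlog of 4.61 in *Pou5f1* Ctrl early ICM and 3.72 in Ctrl morula, and the libraries lay at 3.65 to 3.85 in *Pou5f1*-KO and 3.87 to 4.26 in *Sox2*-KO late ICM. The list holds *Sox2* and *Pou5f1*, the targeted genes, and the *Sox2* peaks alone were at 1.27 in *Sox2*-KO and 3 in *Sox2* Ctrl late ICM, so that its mean in a KO is not a reading of cell types alone. Primitive endoderm markers stood at 2.41 in Ctrl morula, 2.68 in Ctrl late morula and 3.1 in *Pou5f1* Ctrl early ICM, with 2.91 to 3.18 in the other ICM conditions. Of the 8 primitive endoderm markers, 6 were higher in *Pou5f1* Ctrl early ICM than in both Ctrl morula stages, and *Gata6* (4.73, 4.81 and 4.13 in Ctrl morula, late morula and early ICM) and *Dab2* (3.72, 4.27 and 3.28) were lower. All 8 epiblast markers were higher, as were 3 of the 8 trophectoderm markers, with 3 lower. Trophectoderm markers stood at 3.47 in Ctrl morula, 4.01 in Ctrl late morula and 3.83 in *Pou5f1* Ctrl early ICM, and at 4.09 and 4.18 in the late ICMs of the KOs against 3.95 and 3.78 in their Ctrl. The part of these cell types in the opening of the retained peaks was not tested. More cells of a type and more accessible chromatin per cell cannot be told apart in pooled samples.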

How the data were processed

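ATAC-seq libraries had been trimmed, aligned to mm10 with Bowtie2, stripped of duplicates with Picard and shifted for Tn5. MACS2 summits found in at least 2 replicates had been merged and resized to 200 bp. The authors counted insertions per peak with BEDTools and deposited log2 values, the regularised logarithm (rlog) of DESeq2 over all libraries, per library and as group means. No tool version is given in the sources used here. The rlog transform shrinks differences of weak peaks, and the depth of each library is unknown.

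The values were used as deposited, for 152393 peaks. Differences were tested with limma 3.58.1 (R 4.3.3, lmFit on 12 group means over 44 libraries, eBayes with trend), adjusted by Benjamini-Hochberg over all peaks and called at an adjusted p below 0.05. The script was tested on simulated data. Nothing in the labels says that libraries of a group came from separate collections, so p-values measure the spread between these pools.

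Peaks were annotated with GENCODE vM21, an earlier release than the vM23 named by the study, so that nearest genes and distances may differ for some peaks, and sequences were read from GRCm38. Motif words were searched on both strands without mismatch, except OCT-SOX (3 allowed), DR1 (2), CTCF (1) and NRF1 (1). Analyses used Python 3.11.15 with numpy 2.4.6, pandas 2.3.3 and pysam 0.24.0. The members and lists were chosen with earlier results of these data known. Named peaks are the 12 largest rises among peaks whose Ctrl early ICM libraries all lay above the Ctrl morula libraries, with 1 per nearest gene, the 8 largest within 100 bp of a start site, the 6 genes with most such peaks within 10 kb (ties by summed rise), list genes with a peak within 10 kb, and the peaks with calls between early and late *Sox2*-line ICM, at most 3 per direction. Alternatives were quantile normalization, other limits, other filters, a replicate block, a block of same-numbered KO and Ctrl libraries (added after seeing the data), list distances of 50 kb, motif words in the central 100 bp or in peaks over 1 kb from a start site, eBayes without trend, fewer libraries and leaving out each replicate. Peaks on chromosome 18 (11 of the 561) were counted but not named.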

Additional observations from a re-analysis of the deposited data

Results flagged for a closer look

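In 10 of 104 groups of 4 libraries, over the median of the retained peaks and 12 named peaks, 1 library lay far from the other 3, which chance gives in about 1 in 20 groups. The gap to the nearest library as a share of the range was 0.831 for the median over the retained peaks in *Pou5f1*-KO early ICM, where the lowest library was at 3.43 and the others at 4.13 to 4.27. The same library, replicate 1, was lowest at *Serp2* (0.946, 4.47 against 5.97 to 6.05), *Add3* (0.893, 3.69 against 5.22 to 5.4) and *Zmynd8* (0.834, 4.73 against 5.84 to 6.06). *Zmynd8* also had a low library in *Pou5f1* Ctrl early ICM (0.834, 5.42 against 6.05 to 6.17) and in *Sox2*-KO late ICM (0.896, 5.33 against 5.74 to 5.78), and a high one in *Sox2* Ctrl late ICM (0.901, 6.2 against 5.62 to 5.68). At *Prss35* the low library was in *Sox2*-KO early ICM (0.882, 1.49 against 3.76 to 4.06). At *Cstf3* low libraries were in *Pou5f1* Ctrl early ICM (0.846, 4.56 against 5.22 to 5.34) and *Sox2* Ctrl late ICM (0.892, 4.17 against 5.19 to 5.32).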

How the results depend on the processing

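The number of retained peaks depended on the limits. It was 2134 with an opening of at least 1, 123 with at least 2, 260 with KO differences above -0.2, 997 above -0.6 and 175 with all 4 within 0.4 of 0. Leaving out 1 replicate number gave 456 to 702, of which 289 to 358 were among the 561. The counts of retained peaks higher in *Sox2*-line early ICM than in *Pou5f1*-KO late morula and morula were 325 to 423 and 347 to 436 when a library was left out. The few calls between early and late *Sox2*-line ICM were unstable. The 2 rises became 0 with only the libraries of the comparison, with quantile normalization or without trend, 1 with a difference of at least 1, and 0 to 6 without 1 library (6 without *Sox2* Ctrl early ICM replicate 1, 0 without its replicate 2). The 6 falls became 3 with only those libraries and 3 to 11 without 1 library (11 without *Sox2* Ctrl early ICM replicate 4). From *Pou5f1*-KO morula to late morula the 4 rises became 2 to 6 and the 0 falls 0 to 2 without 1 library, with 2 falls after quantile normalization. With the replicate block, the counts were 409, 421, 3, 8, 4 and 1 in the order given here. Between the stages compared, same-numbered libraries did not deviate together (correlations of -0.105 to 0.041), but KO and Ctrl early ICM libraries did, by 0.121 to 0.162 in the *Pou5f1* line and 0.0859 to 0.293 in the *Sox2* line. With a replicate block within line and stage (estimated correlation 0.125), added after seeing the data, the counts were 399, 413, 0, 3, 4 and 0. Among the 175 peaks with all 4 KO differences within 0.4 of 0, the GATA word was in 24.6% and the OCT-SOX word in 0%. Lists within 50 kb in place of 10 kb had up to 11 retained peaks. The causes were not tested. Depth could not be assessed.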
